A study of Mus musculus with 2 samples.

Results

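The AP-1 and EGR immediate early factors are 10 genes of transcription factors: the FOS family (Fos, Fosb, Fosl1 and Fosl2), the JUN family (Jun, Junb and Jund), the zinc finger factors Egr1 and Egr2, and the stress factor Atf3. They were taken by gene symbol, and every probe set of the array that the platform annotation pairs with one of these symbols was included, which gave 15 probe sets of 34958 with a single gene symbol. The 10 genes stand among 18193 named genes on the array. The RNA came from scraped colon mucosa of C57BL/6 mice, 6 to 8 weeks old by the labels and 7 weeks by the design text. Every mouse had received DSS (dextran sulfate sodium, a compound toxic to the colon lining) at 3% for 3 days. The mice were either Hif-2αΔIE, in which Epas1, the gene of the hypoxia-inducible factor HIF-2α, is removed from the intestinal epithelium, or Hif-2αF/F, which carry the conditional alleles. The design text counts 5 ΔIE and 6 F/F mice, while the data hold 1 array per genotype. The sources used here do not state whether RNA was pooled or which Cre driver was used, and no array of mice without DSS was analysed here. With 1 array per genotype no difference could be tested, and none has a standard error or a p-value.

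Immediate early genes are transcribed within minutes of a stimulus, without new protein synthesis, when MAP kinases activate factors such as SRF, the ELK proteins and CREB at their promoters. JUN proteins pair with one another or with FOS proteins through a leucine zipper to form AP-1, which binds TGANTCA, while EGR proteins bind GC-rich sites through zinc fingers. Growth factors, cytokines, mucosal injury and the handling of tissue all induce these genes in the gut, and among the targets of AP-1 are matrix metalloproteinases and cytokines. HIF-2α is a transcription factor of another family, stabilised when oxygen is low.

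The promoters of 4 members are shown because they span the pattern described below: Jun and Atf3 had higher values on the ΔIE array, Junb a lower one, and Fos nearly the same value on both. Each run is the RefSeq window of the GRCm38.p6 build from 250 bases before to 50 after the annotated start, read 5′ to 3′ on the gene's strand. Jun lies at chr4:95052173-95052472 (minus strand), Atf3 at chr1:191183284-191183583 (minus strand), Junb at chr8:84978699-84978998 (minus strand) and Fos at chr12:85473640-85473939 (plus strand). Capitals mark TGACG on either strand, the core of a CREB and ATF site, and in Jun the variant AP-1 site TGACATCA.
Jun: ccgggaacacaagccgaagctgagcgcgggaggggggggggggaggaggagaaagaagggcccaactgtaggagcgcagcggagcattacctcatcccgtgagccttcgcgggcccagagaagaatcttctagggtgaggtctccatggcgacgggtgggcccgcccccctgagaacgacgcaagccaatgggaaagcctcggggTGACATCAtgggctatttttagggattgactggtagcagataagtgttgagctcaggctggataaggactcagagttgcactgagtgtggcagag
Atf3: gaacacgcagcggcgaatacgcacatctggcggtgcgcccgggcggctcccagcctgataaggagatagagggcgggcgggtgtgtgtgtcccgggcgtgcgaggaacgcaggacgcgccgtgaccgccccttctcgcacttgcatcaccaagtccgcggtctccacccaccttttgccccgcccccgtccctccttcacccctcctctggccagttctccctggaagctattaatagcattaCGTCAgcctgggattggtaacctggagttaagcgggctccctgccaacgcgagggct
Junb: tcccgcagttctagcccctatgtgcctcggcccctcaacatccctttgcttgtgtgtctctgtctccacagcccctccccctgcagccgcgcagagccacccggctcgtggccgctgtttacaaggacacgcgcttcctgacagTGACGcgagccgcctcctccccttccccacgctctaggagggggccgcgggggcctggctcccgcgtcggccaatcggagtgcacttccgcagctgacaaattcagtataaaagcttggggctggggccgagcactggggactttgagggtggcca
Fos: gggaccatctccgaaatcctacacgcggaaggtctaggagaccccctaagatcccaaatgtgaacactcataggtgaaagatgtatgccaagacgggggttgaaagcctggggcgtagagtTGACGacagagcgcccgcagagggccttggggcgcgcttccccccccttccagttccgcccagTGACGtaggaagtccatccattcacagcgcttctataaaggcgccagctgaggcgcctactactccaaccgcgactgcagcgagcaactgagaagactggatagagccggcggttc

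Windows were available for 8 of the 10 members, with 5 overlapping or neighbouring windows for Egr2. TGACG on either strand stood in those of 5 members (Atf3, Fosb, Junb, Egr2 and Fos), against 23.0% of all 27025 genes with a window, each counted once however many windows it has. TGACATCA, which differs from the AP-1 site and is known from the Jun promoter, where JUN and ATF2 bind, was found in Jun alone among the members with a window, with its first base at position -45 from the start (the start is 0), against 4.18% of all genes. The complete CREB site TGACGTCA, which contains TGACG on both strands, was in 0 of the 8 and in 2.03% of all genes, and the AP-1 site TGANTCA was in 0 of the 8 and in 8.97% of all. The EGR site GCGNGGGCG was in the windows of Fosb and Fosl2 (6.27% of all), and the CArG box, bound by SRF, was in those of Egr2 (1.81% of all). Among the members kept, TGACG thus stood both in the window of Atf3, which was higher on the ΔIE array, and in that of Junb, which was lower. The members without a window are among Egr1, Jund and Fosl1, so no lack of a site is read for these genes. These matches describe letters within 300 bases and say nothing of binding or of sites outside the windows.

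Levels are given as log2 values from RMA (robust multi-array averaging), and every difference is the ΔIE level minus the F/F level in log2 units. A gene takes its brightest probe set, and it was kept if at least 1 of its levels was 6.11 or more, the median level of all probe sets. By this filter 7 of the 10 members and 9 of their 15 probe sets were kept, while Fosb, Fosl1 and Egr2 lay below it on both arrays. None of the 7 members kept differed 2-fold: 0 were lower and 0 higher, against 5.3% of 11899 genes kept that were at least 2-fold lower and 1.15% that were at least 2-fold higher. Of the 7, 4 were below 0 (46.5% of all genes kept) and 3 above 0 (52.7%), with a median of -0.11 beside 0.02 over all genes kept. The members did not move as a block. Jun and Atf3 were above the upper quartile of all genes, 0.19, and Egr1, Junb and Fosl2 were below the lower quartile, -0.18, while Fos and Jund lay between the quartiles.

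**Figure D1:**
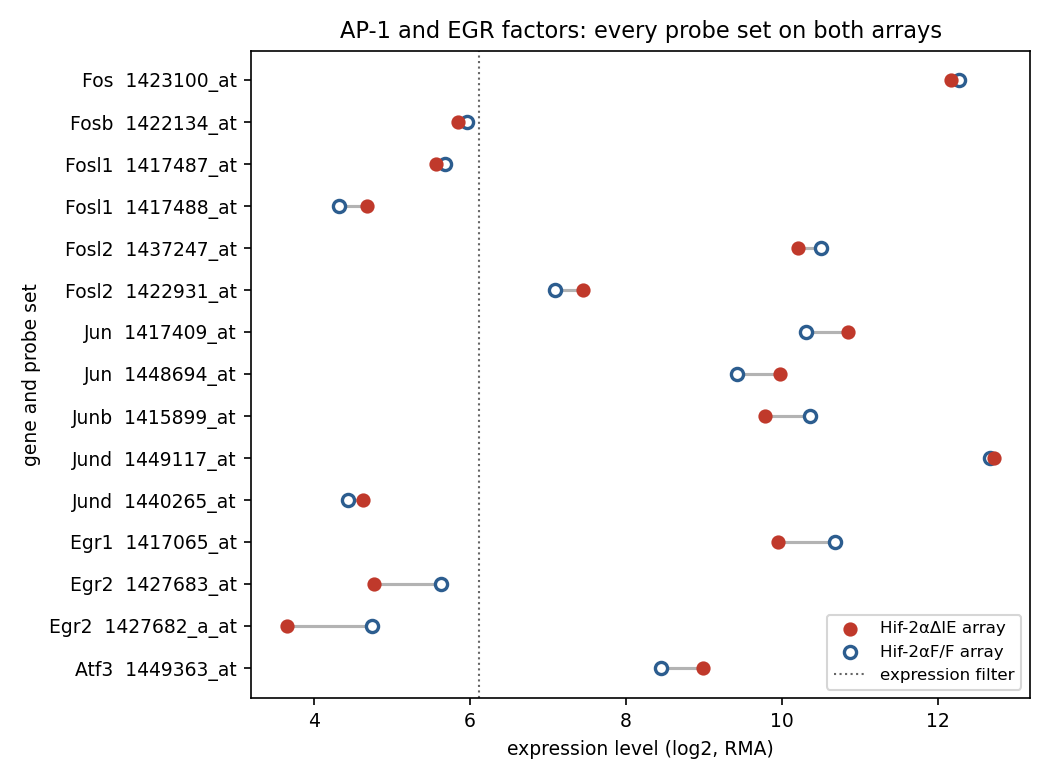
Expression level (log2, RMA, horizontal axis) of each of the 15 probe sets of the 10 members (vertical axis) on the ΔIE array (filled red) and the F/F array (open blue), 1 array each. Both Jun probe sets and Atf3 lie further right on the ΔIE array, Junb, Egr1 and both Egr2 probe sets further left, and 6 of the 15 probe sets lie left of the dotted filter at 6.11.

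Of the JUN family, Jun was higher on the ΔIE array, Junb lower, and Jund about equal. Jun encodes c-JUN, the strongly transactivating subunit of AP-1. Its brighter probe set read 10.84 on the ΔIE array, against 10.31 on the F/F array, a difference of 0.54 or 1.45-fold. Its second probe set, drawn from the same transcript record, read 9.98 on the ΔIE array and 9.42 on the F/F array, a difference of 0.56, so the 2 probe sets of Jun gave nearly the same difference. Of all genes kept, 5.23% had a difference as high as that of Jun. Junb, a JUN subunit with weaker transactivation that can oppose c-JUN at shared sites, had 1 probe set, which read 9.78 on the ΔIE array and 10.36 on the F/F array, a difference of -0.58 or 1.49-fold lower. Of all genes kept, 10.8% had a difference as low. The differences of Jun and Junb were thus 1.11 apart on the log2 scale. Jund, a JUN subunit that many resting cells express, read 12.73 on the ΔIE array and 12.67 on the F/F array by its brighter probe set, a difference of 0.06. Its other probe set lay below the filter, at 4.63 on the ΔIE array and 4.43 on the F/F array.

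Of the FOS family, no member kept differed by more than 0.29 by its brightest probe set. Fos encodes c-FOS, which binds DNA only as a partner of a JUN protein. It read 12.17 on the ΔIE array and 12.28 on the F/F array, a difference of -0.11. Fos was thus nearly level on the arrays on which Jun and Junb differed in opposite directions. Fosl2 (FRA-2), a FOS relative without the strong activation domain of c-FOS, gave no single direction. Its brighter probe set read 10.21 on the ΔIE array and 10.51 on the F/F array, a difference of -0.29, whereas its dimmer one read 7.45 on the ΔIE array and 7.09 on the F/F array, a difference of 0.36. Averaged over both, Fosl2 differed by 0.03. Across 5110 genes with more than 1 probe set kept, the median gap between the differences of the brightest pair was 0.10 and the 95th percentile was 0.41, and the gap in Fosl2 was wider than that percentile. Fosb read 5.84 on the ΔIE array and 5.96 on the F/F array. Fosl1 (FRA-1), which AP-1 itself induces, read 5.57 on the ΔIE array and 5.68 on the F/F array by its brighter probe set, and 4.68 on the ΔIE array and 4.31 on the F/F array by the other. All of these lay below the filter, and the probe sets of Fosl1 differed in sign.

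Of the EGR genes, only Egr1 was kept, and it was lower on the ΔIE array. Egr1, a zinc finger factor induced by serum and injury, had the widest difference of the members kept. Its probe set read 9.95 on the ΔIE array and 10.68 on the F/F array, a difference of -0.74 or 1.66-fold lower, and 8.27% of all genes kept had a difference as low. At 1.5-fold it was the only one of the 7 members kept to be counted, in a background of 10.6% of genes lower and 4.37% higher by that fold. Egr2, a relative known from myelin and lymphocyte development, lay below the filter on both arrays. Its probe sets read 4.77 and 3.65 on the ΔIE array, against 5.63 and 4.74 on the F/F array, with differences of -0.86 and -1.09. Both lay at levels where the filter removes a gene, so neither a fold nor a direction is read from them.

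Atf3, an ATF and CREB relative that forms dimers with JUN proteins and is induced by stress, was higher on the ΔIE array. Its single probe set read 8.99 on the ΔIE array and 8.45 on the F/F array, a difference of 0.54 or 1.45-fold, and 5.19% of all genes kept had a difference as high. Atf3 and Jun thus had almost the same difference. Of the 5 members with 2 probe sets, Jun, Jund and Egr2 had the same sign in both, and Fosl1 and Fosl2 did not. Only Jun and Fosl2 had both probe sets kept. The signs in Jund, Egr2 and Fosl1 rest on probe sets below the filter and are not read as agreement or disagreement.

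**Figure D2:**
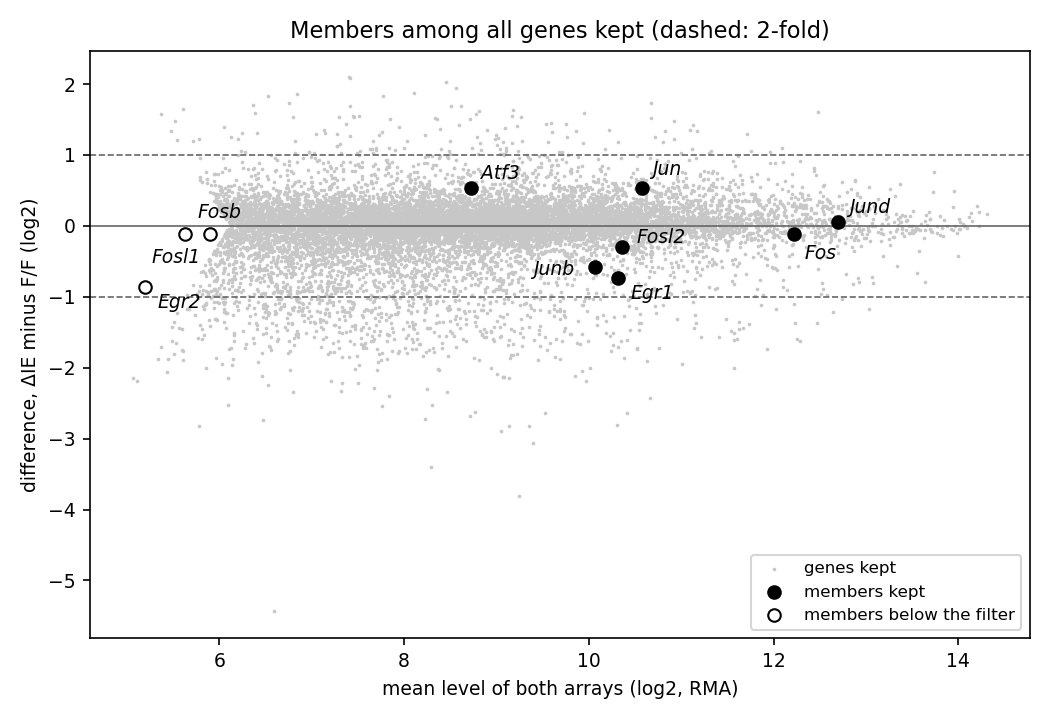
Difference between the arrays (ΔIE minus F/F, log2, vertical axis) against the mean level of both arrays (log2, RMA, horizontal axis) for the 11899 genes kept (grey), the 7 members kept (black) and the 3 members below the filter (open). All 10 members lie between the dashed lines of 2-fold by their brightest probe set, with Jun and Atf3 at 0.54 and Egr1 at -0.74 the outermost of those kept.

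The control probe sets for Cre read between 7.86 and 10.01 on the array labelled ΔIE, against between 2.92 and 4.22 on the F/F array. The source of this signal was not tested. Epas1 read 11.77 on the ΔIE array and 11.90 on the F/F array by its brighter probe set, and 7.15 on the ΔIE array and 6.98 on the F/F array by its dimmer one, and the place of its probe sets relative to the deleted part was not determined here. The 3′ minus 5′ level of the actin control probe sets, a sign of RNA integrity, was 0.42 on the ΔIE array and 0.40 on the F/F array, and that of Gapdh was -0.018 on the ΔIE array and -0.020 on the F/F array. All 12 colon epithelium markers fixed for this comparison were kept, with a median level of 13.46 on the ΔIE array and 13.23 on the F/F array and a median difference of 0.11. Leukocyte markers were lower on the ΔIE array: all 11 neutrophil genes kept (median -1.49), all 12 macrophage genes (-1.14), all 7 B cell genes (-1.73) and all 6 T cell genes (-0.59) were below 0, against 46.5% of all genes kept. The B cell genes Cr2 (5.02 on the ΔIE array), Pax5 (5.58) and Blk (6.10) and the macrophage gene Itgam (5.89) reached the filter on the F/F array alone. These genes could therefore only fall below 0. Fibroblast and matrix genes (8 of 8 below 0, median -0.87) and endothelial genes (6 of 6, -0.66) were lower as well, and smooth muscle genes were about level (-0.04). Squamous epithelium genes (7 of 7 below 0, -1.55) and posterior Hox genes (7 of 7, -1.49), which mark the most distal gut, were lower. Adipose genes were higher (5 of 5 above 0, against 52.7% of all genes kept, median 0.79). Of the Hox genes, Hoxa10 (5.71 on the ΔIE array), Hoxa13 (4.71) and Hoxd11 (5.51) also reached the filter on the F/F array alone and could only fall below 0. The transcripts of these marker lists moved on the same arrays as the members, and their part in the members' differences was not tested. In such bulk tissue fewer cells of a type and less RNA per cell cannot be told apart.

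Among other basic leucine zipper factors of the AP-1, ATF, CREB and MAF families, 11 of 14 genes kept were below 0 (46.5% of all genes kept), with a median of -0.11, and 1 was at least 2-fold lower (5.3% of all). That gene was Jdp2, a JUN dimerisation partner that represses AP-1, which read 7.50 on the ΔIE array and 8.61 on the F/F array, a difference of -1.11. Crem, a CREB relative with inducible repressor isoforms, read 6.36 on the ΔIE array and 7.08 on the F/F array, a difference of -0.72. The second probe set of Crem that was kept differed by -0.31. Maf differed by -0.34 by its brightest probe set, and its 5 probe sets kept ran from -0.84 to -0.20. Batf, a FOS-like factor of lymphocytes, differed by -0.32, Creb1 by -0.28 and Batf2 by -0.16. Atf5 (-0.03) and Mafk (0.01) were nearly level. Of the EGR relatives and NAB proteins, 3 of 5 genes were kept. Nab2 and Nab1, corepressors that bind EGR proteins, differed by -0.48 and -0.38, while Egr3 differed by 0.31, opposite in sign to Egr1.

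Other immediate early genes leaned lower on the ΔIE array. Of 35 kept, 28 were below 0, against 46.5% of all genes kept, with a median of -0.27. In either direction 0 passed 2-fold, against 5.3% of all genes kept lower and 1.15% higher. Ier5l read 5.77 on the ΔIE array, below the filter, and 6.70 on the F/F array. Sik1 likewise read 5.63 on the ΔIE array and 6.17 on the F/F array. Ier5l and Sik1 were kept through the F/F array alone and could only fall below 0. The kinase gene Pim1 read 8.60 on the ΔIE array and 9.47 on the F/F array, a difference of -0.87. Nfil3, a basic leucine zipper repressor, differed by -0.77, Ccn2, which encodes connective tissue growth factor, by -0.74, Klf2, a Krüppel-like factor of endothelium and lymphocytes, by -0.63, and Ier3 by -0.60. Of the 7 genes above 0 the widest was Sgk1, which was named after its value was seen. Sgk1 read 12.33 on the ΔIE array and 11.74 on the F/F array, a difference of 0.59. Klf4, a factor of differentiated colonocytes, differed by -0.003 by its brighter probe set and by 0.11 by the other, and Ier2 by 0.002. Ier2, like Fos, was therefore about level on these arrays, while Egr1 and Junb were lower.

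**Figure D3:**
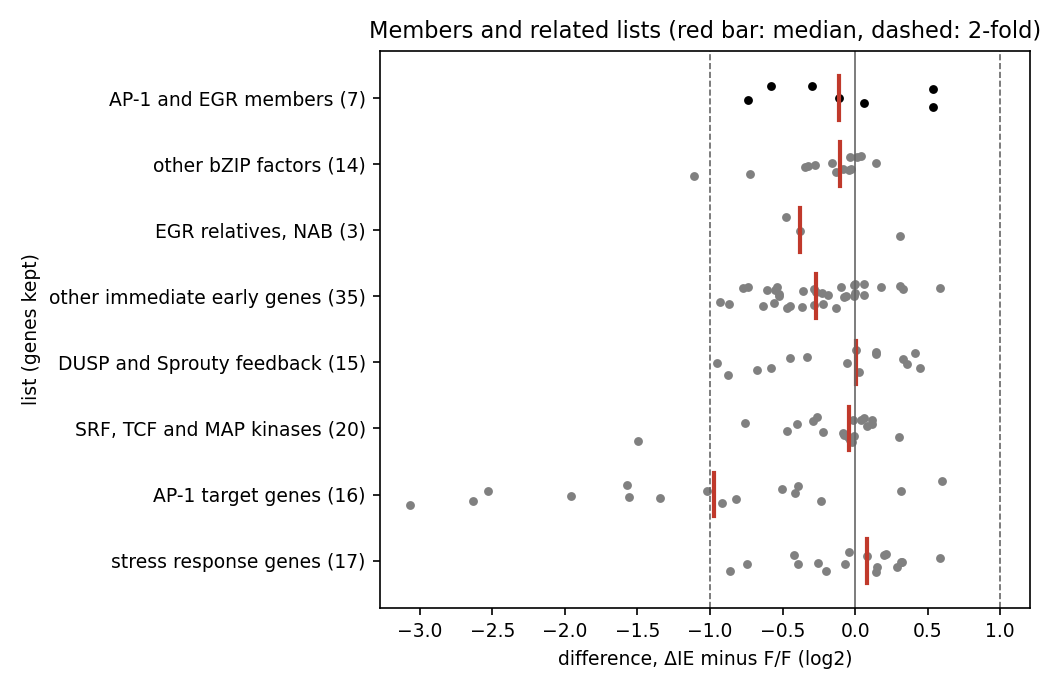
Difference between the arrays (ΔIE minus F/F, log2, horizontal axis) of each gene kept (points) in the members and the 7 related lists (vertical axis, number of genes kept in brackets), with the median of each list as a red bar. The AP-1 target genes have a median of -0.97, whereas the medians of the members (-0.11) and of the other lists lie between -0.38 and 0.08.

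Feedback regulators of the MAP kinases that drive immediate early genes went both ways, with 7 of 15 below 0 and a median of 0.01. This count lies near the 46.5% of all genes kept that were below 0. Dusp1, a nuclear phosphatase that switches off JNK and p38 and is itself an immediate early gene, read 10.20 on the ΔIE array and 11.15 on the F/F array, a difference of -0.95 or 1.93-fold lower. Dusp4, Dusp14, Dusp2 and Dusp5, further phosphatases of this family, differed by -0.88, -0.68, -0.58 and -0.45. Dusp10, which acts on JNK and p38, was higher by 0.44, and the Sprouty genes Spry2 and Spry4 differed by 0.01 and 0.03.

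Of the SRF, ELK and MAP kinase genes upstream, 14 of 20 kept were below 0 (46.5% of all genes kept), with a median of -0.04, and 1, Elk3, was at least 2-fold lower, a share near the 5.3% of all genes. Elk3, a ternary complex factor that joins SRF at the serum response element and is prominent in endothelium, read 8.19 on the ΔIE array and 9.69 on the F/F array, a difference of -1.50, and its second probe set kept differed by -1.21. The 6 endothelial markers ran from -1.07 (Lyve1) to -0.34 on the same arrays, with a median of -0.66, and their part in the difference of Elk3 was not tested. Map3k8, the kinase TPL2 that links inflammatory receptors to ERK, differed by -0.76 and Rps6ka5, the kinase MSK1, by -0.47. Elk4 differed by -0.40 by its brightest probe set, but by 0.22 by its other probe set kept. Map2k6 differed by 0.30 and Map2k1 by -0.008. Mapk14 (-0.29) and Mrtfb (-0.01) had probe sets of both signs, which ran up to 0.04 and 0.13.

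Many genes known as targets of AP-1 were lower on the ΔIE array. Of 16 targets kept, 14 were below 0 (46.5% of all genes kept) and 8 at least 2-fold lower (5.3% of all). Their median was -0.97, beside -0.11 for the members and 0.02 for all genes kept. This list holds genes already known to be low in these data and is no independent evidence of its direction. Mmp10 (stromelysin 2) read 7.86 on the ΔIE array and 10.93 on the F/F array, 8.38-fold lower. Mmp3 (stromelysin 1) read 9.09 on the ΔIE array and 11.73 on the F/F array, 6.21-fold lower. Mmp13 (collagenase 3) read 7.04 on the ΔIE array and 9.57 on the F/F array, 5.77-fold lower. These 3 metalloproteinases are thus the widest of the list. Il6 read 5.05 on the ΔIE array, below the filter, and 7.00 on the F/F array. Hmox1 likewise read 5.96 on the ΔIE array and 6.35 on the F/F array. Il6 and Hmox1 were kept through the F/F array alone and could only fall below 0. The neutrophil chemokine gene Cxcl2 was 2.97-fold lower, Mmp9, the gelatinase that neutrophils carry, 2.95-fold, the inhibitor gene Timp1 2.54-fold and the prostaglandin synthase gene Ptgs2 2.03-fold. The differences at the narrow end were 0.32 for the cyclin gene Ccnd1 and -0.24 for Sprr1a. The 2 targets above 0 were Ccnd1 and the cornified envelope gene Lor. Lor read 6.16 on the ΔIE array and 5.56, below the filter, on the F/F array. Lor was thus kept through the ΔIE array alone and could only fall above 0, and it was named after its value was seen. The neutrophil (-1.49), macrophage (-1.14) and fibroblast (-0.87) markers were lower on the same arrays, and their part in the low targets was not tested.

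The AP-1 sites of the 3 metalloproteinase promoters are shown because metalloproteinase promoters are textbook places of AP-1 binding and these genes were the lowest of the list. Each run is 60 bases of the RefSeq window in the GRCm38.p6 build, 5′ to 3′ on the plus strand, with TGANTCA in capitals. Mmp10 lies at chr9:7502253-7502312, Mmp3 at chr9:7445750-7445809 and Mmp13 at chr9:7272453-7272512, and the sites begin at positions -63, -46 and -35 from the start.
Mmp10: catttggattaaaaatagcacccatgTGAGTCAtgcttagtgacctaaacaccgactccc
Mmp3: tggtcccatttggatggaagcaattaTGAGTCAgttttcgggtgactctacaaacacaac
Mmp13: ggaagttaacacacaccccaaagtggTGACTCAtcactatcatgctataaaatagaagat

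Of 13 targets kept with a window, 7 held TGANTCA within it and 6 did not. Over all genes with a window, 8.97% held it. The list was made of known AP-1 targets, many of them already known to be low here, so neither this share nor the differences of genes with and without the site are read further.

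**Figure D4:**
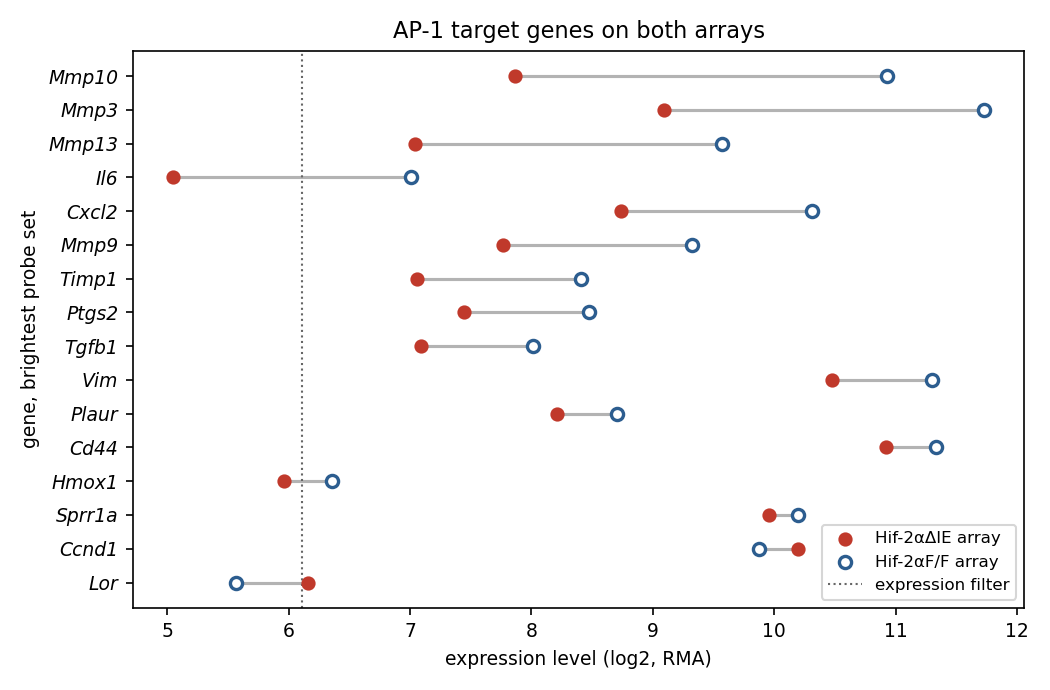
Expression level (log2, RMA, horizontal axis) of the 16 AP-1 target genes kept (vertical axis, brightest probe set, from lowest to highest difference) on the ΔIE array (filled red) and the F/F array (open blue), with the expression filter at 6.11 dotted. Mmp10, Mmp3 and Mmp13 are furthest apart, at 8.38-fold, 6.21-fold and 5.77-fold lower on the ΔIE array, and Ccnd1 and Lor are the 2 genes further right on it.

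Genes of the stress responses in which Atf3 takes part did not share its direction as a group. Of 17 kept, 8 were below 0 (46.5% of all genes kept) and 9 above (52.7%), and the median was 0.08. These counts lie near the shares of all genes. Trib3 read 6.14 on the ΔIE array and 5.99, below the filter, on the F/F array. Trib3 was kept through the ΔIE array alone and could only fall above 0. None of the 17 passed 2-fold, against 5.3% of all genes kept lower and 1.15% higher by that fold. The heat shock genes Hspb1, Hspa1b, Hspa1a and Dnajb1 differed by -0.86, -0.75, -0.42 and -0.39. The growth arrest gene Gadd45a read 9.91 on the ΔIE array and 9.32 on the F/F array, a difference of 0.58, and Sesn2, a target of ATF4 and p53, differed by 0.32. Xbp1, a regulator of the unfolded protein response (-0.07), and Cdkn1a, the cell cycle inhibitor p21 (-0.04), were nearly level. Hsph1, a further heat shock gene that was named after its value was seen, differed by 0.32, so the heat shock genes gave no single direction. The rest of the list was also named after its values were seen. Of these, Ddit3 (0.29), Chac1 (0.21), Asns (0.20), Atf4 (0.15), Trib3 (0.15) and Ppp1r15a (0.08) were above 0, like Atf3. Herpud1 (-0.25) and Hspa5 (-0.20) were below 0. The part of tissue handling in the members' differences was not tested.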

How the data were processed

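The deposited table holds log2 expression of 45101 probe sets on 2 arrays, computed by the authors with RMA in affy, per the submitters' processing notes; the sources used here state neither versions nor which arrays were normalized together. The quantile step of RMA gives arrays normalized together equal distributions of probe intensities, not of probe set levels. The median probe set level was 6.107 on the ΔIE array and 6.124 on the F/F array. RMA makes no call of presence and shrinks differences between dim probe sets. Arrays were grouped by the genotype label, and with 1 array per value their number limits the precision. Symbols came from the platform annotation: 34958 probe sets had 1 symbol, 932 several and 9211 none, and only the first were named. A gene took its probe set of highest mean, the 64 control probe sets were left out, and a gene was kept at a level of 6.11 on either array. No test was run; genes were counted at 2-fold.

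The members and lists were chosen with earlier results of these data known. Named were all members and, of each of the 7 related lists, up to 6 genes of widest difference, all at 2-fold and the 2 of smallest difference. Of each of the 11 marker lists the count and median were to be given. Genes of these lists kept through 1 array alone were also named, as was Lyve1. So were the genes marked as named after their values were seen. No gene was named for likeness of pattern, since 2 arrays give 1 difference per gene. Counting was checked on simulated arrays with large shifts in genes well above the filter, so counting near 2-fold or near the filter was not checked. Alternatives were the mean over probe sets, leaving out probe sets ending in _s_at or _x_at, median centring, a lowess correction (span 0.3), dropping the filter, setting it at the 75th percentile, requiring it of both arrays, 1.5-fold and 3-fold, and agreement of all probe sets. Leaving out metalloproteinases was added after seeing the data. The tools were Python 3.11.15, numpy 2.4.6, pandas 2.3.3, statsmodels 0.14.6 and matplotlib 3.10.9.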

Additional observations from a re-analysis of the deposited data

Results flagged for a closer look

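Outside the genes compared, the control probe sets for Cre recombinase gave a signal on the ΔIE array above that of the F/F array. AFFX-CreX-3_at read 9.29 on the ΔIE array and 4.22 on the F/F array, AFFX-CreX-5_at 7.86 on the ΔIE array and 2.92 on the F/F array, AFFX-r2-P1-cre-3_at 10.01 on the ΔIE array and 3.51 on the F/F array, and AFFX-r2-P1-cre-5_at 9.67 on the ΔIE array and 3.48 on the F/F array. They differed between the arrays of the 2 genotype labels and are no part of the AP-1 and EGR values. Whether the signal came from a Cre transgene was not tested.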

How the results depend on the processing

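A shift of over 0.41 on the log2 scale counted as a move, the spread that 95% of genes show between their 2 brightest probe sets, as did a change of over 1.5 times in a count. Of 117 alternative values 115 had not moved and 2 had. At 1.5-fold in place of 2-fold, 1 member, Egr1, was counted as lower in place of 0. With no filter the median of the EGR relatives was 0.054 in place of -0.38, since 5 genes entered in place of 3. None of the 10 members moved by over 0.41. Jun (0.48 to 0.58), Atf3 (0.51 to 0.58), Junb (-0.64 to -0.54) and Egr1 (-0.80 to -0.69) kept their direction under the mean over probe sets, the probe set filter, median centring and the lowess correction. Several of these settings could not change a member. No member probe set ends in _s_at or _x_at. Atf3, Junb and Egr1 have 1 probe set each, so their mean is the main value. Median centring shifts all genes by the same amount. Part of the values that had not moved was thus fixed in advance. The sign of Fosl2 did not hold, at -0.36 to 0.03, nor did that of Fosl1, at -0.11 to 0.13, and the median of the members ran from -0.17 to 0.03. The AP-1 target median ran from -1.19 to -0.66. Without metalloproteinases, an alternative chosen after seeing the data, 10 of 12 targets were below 0 (46.5% of all genes kept) and 4 at least 2-fold lower (5.3% of all). The list still holds genes already known to be low in these data. Among them Il6, at least 2-fold lower, and Hmox1 were kept through the F/F array alone and could only fall below 0. These counts are therefore no independent evidence of direction. No paired analysis was possible because each genotype has 1 array. The spread between probe sets is technical and says nothing of variation between mice, which these arrays do not show, and dim probe sets such as those of Fosb, Fosl1 and Egr2 cannot be read for direction.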
